A study of Mus musculus with 4 samples.

Results

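Fusion of mononuclear precursors into multinucleated osteoclasts, the cells that resorb bone, depends on proteins at the cell surface. The 9 genes described here encode such proteins, and they were chosen by name as surface genes of osteoclast precursor fusion: Dcstamp, Ocstamp, Cd9, Cd81, Cd47, Sirpa, Adam8, Adam12 and Cd44. Their probes were found through the RefSeq accession that the scanner files give for each probe, which gave 15 of 56605 probes and 9 of 22903 named genes. Of the 9 genes, 4 had 1 probe and 5 had several.

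The 4 samples were RNA from cultured mouse marrow cells, each on its own one-colour array of 1 slide, with 1 array per group. The groups were LysM-St18flox osteoclasts, wild-type osteoclasts, LysM-St18flox macrophages and wild-type macrophages. Macrophages were grown from marrow with M-CSF, the macrophage growth factor (25 ng/ml, 4 days). Osteoclasts were such macrophages given 3 further days of M-CSF (25 ng/ml) plus the osteoclast-inducing cytokine RANKL (50 ng/ml). The name LysM-St18flox denotes, by convention, a loxP-flanked St18 gene, which encodes a zinc finger transcription factor, and a Cre recombinase driven by the lysozyme M gene of myeloid cells. The labels give neither allele for the wild-type mice, so an effect of the floxed gene and one of the Cre allele cannot be told apart, and RANKL and time in culture changed together between the cell types. Strain, age, sex, the number of mice per culture and whether cultures shared a mouse were not stated.

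RANKL acts through its receptor on precursors to switch on NFATc1, the master transcription factor of osteoclasts, and this factor drives genes of fusion and of resorption. DC-STAMP and OC-STAMP, the multipass membrane proteins encoded by Dcstamp and Ocstamp, are both needed for fusion in mice, where osteoclasts without either protein stay mononuclear. The tetraspanins CD9 and CD81 organise membrane microdomains and restrain fusion of mouse macrophages when both are present. CD47 on one cell binds SIRPα on the next, ADAM8 and ADAM12 are metalloprotease-disintegrins linked to fusion, and CD44 is a receptor for hyaluronan and osteopontin.

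Values are log2 signals relative to the 75th percentile of the array, so a value of 0 is the 75th percentile of all probes. Levels are compared between arrays for 1 probe and never between probes. No group had a second array, so no difference has a replicate check or a test, and a gene was counted as higher or lower where the difference was at least 2-fold. The 75th percentile of the unscaled signal was 1061.9 in LysM-St18flox osteoclasts and 769.9 in wild-type osteoclasts, and it was 1159.3 in LysM-St18flox macrophages and 635.5 in wild-type macrophages. Of the probe spots, 59.0% to 63.2% were well above background on an array and no spot was saturated, and all 9 genes were well above background on all 4 arrays. Probes printed in several spots gave the spread within an array, a median SD of 0.030 to 0.042 for those above 2 on the log2 scale and of 0.12 to 0.14 for those below -2, which leaves out all variation between arrays, mice and cultures. From the medians over all such probes, the within-array part of the SD of a difference between 2 arrays was 0.045 to 0.056. Most of these probes were above 2 (270 of 286 in LysM-St18flox osteoclasts), so it is too small for differences that rest on signals below -2. In RNA from a whole culture, fewer cells of a type and less RNA per cell cannot be told apart.

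All 7 osteoclast markers (Ctsk, Acp5, Calcr, Mmp9, Itgb3, Oscar and Nfatc1) were at least 2-fold higher in osteoclasts than in macrophages of both genotypes, and all 7 macrophage markers were above background on all 4 arrays. The brighter St18 probe was at -1.52 in LysM-St18flox macrophages and 0.29 in wild-type macrophages, and at 1.12 in LysM-St18flox osteoclasts and 1.55 in wild-type osteoclasts. A dimmer St18 probe was above background in LysM-St18flox osteoclasts alone, and the files do not say where either probe lies relative to the floxed part, so these signals are no check of the deletion.

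Dcstamp and Ocstamp stood far higher in osteoclasts and Cd81 was lower. With the probe and scaling used, the other 6 genes differed by less than 2-fold between the cell types in both genotypes. Between osteoclasts and macrophages of the same genotype, Dcstamp was 445-fold higher in LysM-St18flox cells and 56.3-fold higher in wild-type cells. Ocstamp was 183-fold and 40.2-fold higher in the same comparisons. Cd81 was 4.00-fold lower in LysM-St18flox osteoclasts and 2.19-fold lower in wild-type osteoclasts. In each genotype 2 of the 9 genes were therefore higher and 1 lower, against 10.9% of 15573 measured genes higher and 12.2% lower (23.2% in all) in LysM-St18flox, and 5.7% of 14733 higher and 7.32% lower (13% in all) in the wild type. With quantile normalization, Sirpa (-1.01) and Adam12 (1.09) also passed 2-fold in LysM-St18flox. The median difference over the 9 genes was 0.77 in LysM-St18flox and 0.16 in wild-type cells, beside -0.02 and 0.00 over all measured genes.

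**Figure D1:**
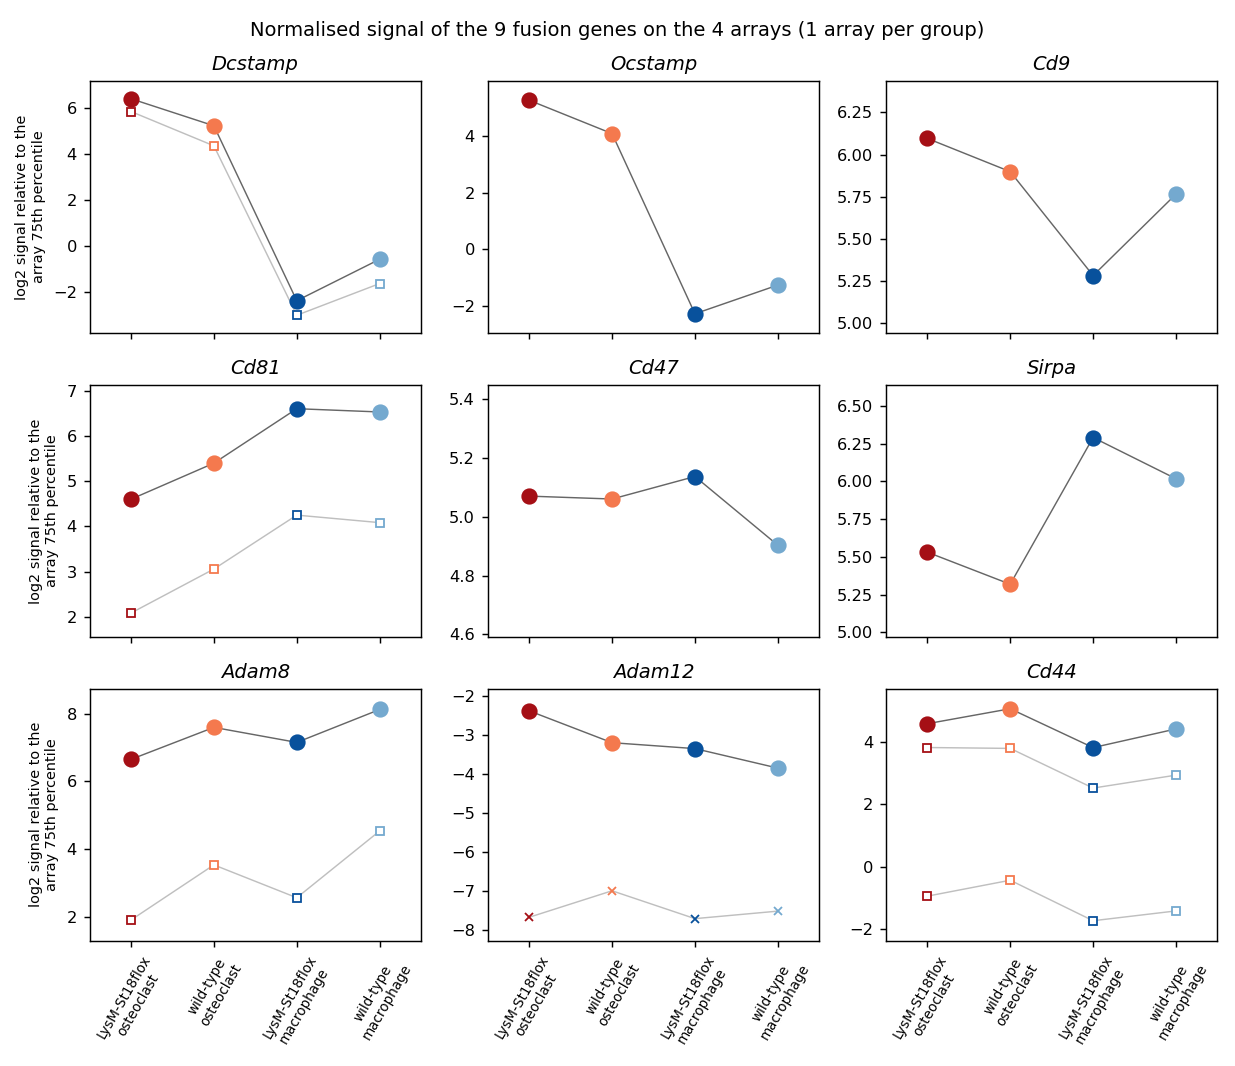
Log2 signal of the 9 genes relative to the 75th percentile of the array, 1 point per array and probe, in LysM-St18flox and wild-type osteoclasts and LysM-St18flox and wild-type macrophages. Filled circles are the probe used, open squares other probes of the gene, and crosses signals not well above background; the lines join the points of a probe and the vertical scale differs between panels. Dcstamp and Ocstamp separate the cell types by more than 5 log2 units, while Cd47 stays between 4.90 and 5.14.

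Dcstamp (NM_029422, chromosome 15) had a signal of 6.42 in LysM-St18flox osteoclasts and 5.24 in wild-type osteoclasts, and of -2.38 in LysM-St18flox macrophages and -0.58 in wild-type macrophages. The osteoclast arrays were the high ones and LysM-St18flox macrophages the lowest. The difference between cell types was 8.80 in LysM-St18flox, the 8th highest of all measured genes, and 5.82 in the wild type, the 24th highest. A second Dcstamp probe gave 8.88 in LysM-St18flox and 6.0 in wild-type cells.

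Ocstamp (NM_029021, chromosome 2), the structural relative of Dcstamp, followed the same order of arrays. Its signal was 5.25 in LysM-St18flox osteoclasts and 4.07 in wild-type osteoclasts, against -2.27 in LysM-St18flox macrophages and -1.26 in wild-type macrophages. The cell type difference was 7.51 in LysM-St18flox and 5.33 in wild-type cells, the 21st and the 28th highest of the measured genes. Ocstamp has 1 probe, so no second probe bears on these values.

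The tetraspanins were bright on every array. Cd81 (NM_133655, chromosome 7) was at 4.6 in LysM-St18flox osteoclasts and 5.40 in wild-type osteoclasts, against 6.6 in LysM-St18flox macrophages and 6.53 in wild-type macrophages. The macrophage arrays were nearly level and both osteoclast arrays were lower, LysM-St18flox the lowest. The second Cd81 probe gave a cell type difference of -2.17 in LysM-St18flox and -1.03 in wild-type cells, beside -2.0 and -1.13 for the brighter one. Cd9 (NM_007657, chromosome 6) was at 6.10 in LysM-St18flox osteoclasts and 5.90 in wild-type osteoclasts, and at 5.28 in LysM-St18flox macrophages and 5.77 in wild-type macrophages. LysM-St18flox macrophages were the low array for Cd9. Its cell type difference was 0.81 in LysM-St18flox and 0.13 in wild-type cells, and the second value turned to -0.00 with the normexp background correction.

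Cd44 (NM_009851, chromosome 2) was higher on the osteoclast array in both genotypes with each of its 3 probes. The brightest probe was at 4.58 in LysM-St18flox osteoclasts and 5.06 in wild-type osteoclasts, and at 3.82 in LysM-St18flox macrophages and 4.42 in wild-type macrophages, which is a cell type difference of 0.77 in LysM-St18flox and 0.65 in wild-type cells. The other 2 probes gave 1.30 and 0.79 in LysM-St18flox, and 0.86 and 0.98 in the wild type. One of the 3 probes therefore passed 2-fold, in LysM-St18flox, and none did in the wild type. Which Cd44 transcripts each probe detects is not given in the files.

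Promoter sequence is shown for Cd81, the member that was lower in osteoclasts, for its fellow tetraspanin Cd9, for Cd44, which was somewhat higher in osteoclasts, and for Adam8, which was lower by nearly 2-fold in LysM-St18flox in both cell types. The windows are the 250 bases before the transcription start in RefSeq's annotation of GRCm38.p6, given 5′ to 3′ on the strand of the gene, and capitals mark GGAAA or its reverse TTTCC, the core bound by NFAT factors and contained in many ETS sites. Of the 9 genes, 5 matched the sequence table, and Dcstamp, Ocstamp, Sirpa and Adam12 did not.
Cd9, chr6:125494761-125495010, minus strand: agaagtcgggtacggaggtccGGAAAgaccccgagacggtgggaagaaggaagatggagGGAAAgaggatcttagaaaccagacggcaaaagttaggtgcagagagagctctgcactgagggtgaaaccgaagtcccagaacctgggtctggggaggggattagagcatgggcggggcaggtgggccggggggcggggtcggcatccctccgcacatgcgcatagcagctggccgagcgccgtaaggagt
Cd81, chr7:143052500-143052749, plus strand: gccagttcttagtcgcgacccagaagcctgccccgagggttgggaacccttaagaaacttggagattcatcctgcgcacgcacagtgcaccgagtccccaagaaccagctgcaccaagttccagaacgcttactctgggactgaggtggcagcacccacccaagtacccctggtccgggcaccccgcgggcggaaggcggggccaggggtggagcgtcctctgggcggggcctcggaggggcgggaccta
Cd44, chr2:102901666-102901915, minus strand: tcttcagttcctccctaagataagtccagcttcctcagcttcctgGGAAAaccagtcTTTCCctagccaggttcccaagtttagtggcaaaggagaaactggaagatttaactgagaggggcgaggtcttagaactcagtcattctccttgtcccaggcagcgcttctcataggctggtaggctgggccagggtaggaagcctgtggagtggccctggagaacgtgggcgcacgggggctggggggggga
Adam8, chr7:139992563-139992812, minus strand: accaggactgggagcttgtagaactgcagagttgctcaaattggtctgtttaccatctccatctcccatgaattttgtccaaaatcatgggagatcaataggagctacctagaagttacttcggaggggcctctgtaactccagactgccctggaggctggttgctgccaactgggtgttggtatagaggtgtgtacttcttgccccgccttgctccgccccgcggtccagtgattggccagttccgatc
On either strand the NFAT core was found 2 times in the Cd9 window and 2 times in the Cd44 window, and was not found in the Cd81, Adam8 and Cd47 windows. It occurs in 55.6% of 32851 such windows. The AP-1 site TGANTCA, held by 6.75% of windows, and AAAGTTT with its reverse AAACTTT, the site recognised by zinc fingers of the St18 family and held by 4.2%, were not found in any member's window, so no motifs overlapped. A match is a description of these letters and not evidence of binding.

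Of the ligand and receptor that meet between neighbouring cells, Cd47 differed little between the arrays and Sirpa was lower in osteoclasts, by less than 2-fold. Cd47 (NM_010581, chromosome 16) was at 5.07 in LysM-St18flox osteoclasts and 5.06 in wild-type osteoclasts, and at 5.14 in LysM-St18flox macrophages and 4.90 in wild-type macrophages. The osteoclast arrays differed by 0.01, less than the spread of 0.048 calculated from spots, and this sign turned under quantile normalization. Sirpa (NM_007547, chromosome 2) was at 5.53 in LysM-St18flox osteoclasts and 5.32 in wild-type osteoclasts, against 6.29 in LysM-St18flox macrophages and 6.02 in wild-type macrophages. Both osteoclast arrays were thus lower than both macrophage arrays, by 0.76 within LysM-St18flox and 0.70 within the wild type. In LysM-St18flox the Sirpa difference was -1.01 with quantile normalization and with the authors' deposited values. The files give no probe sequence, so signal from the close relatives of Sirpa on its probe could not be checked.

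The ADAM genes differed in opposite directions. Adam8 (NM_007403, chromosome 7) was at 6.65 in LysM-St18flox osteoclasts and 7.59 in wild-type osteoclasts, and at 7.15 in LysM-St18flox macrophages and 8.12 in wild-type macrophages. The LysM-St18flox array was the lower one in each cell type, and the osteoclast array the lower one in each genotype. A second, dimmer Adam8 probe gave a cell type difference of -0.66 in LysM-St18flox. In the wild type it gave -1.0004, just past 2-fold. Adam12 (NM_007400, chromosome 7) was dim, at -2.38 in LysM-St18flox osteoclasts against -3.19 in wild-type osteoclasts, and at -3.35 in LysM-St18flox macrophages against -3.85 in wild-type macrophages. Its cell type difference was 0.97 in LysM-St18flox, just under 2-fold, and 0.65 in the wild type. A second Adam12 probe was not well above background on any array.

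**Figure D2:**
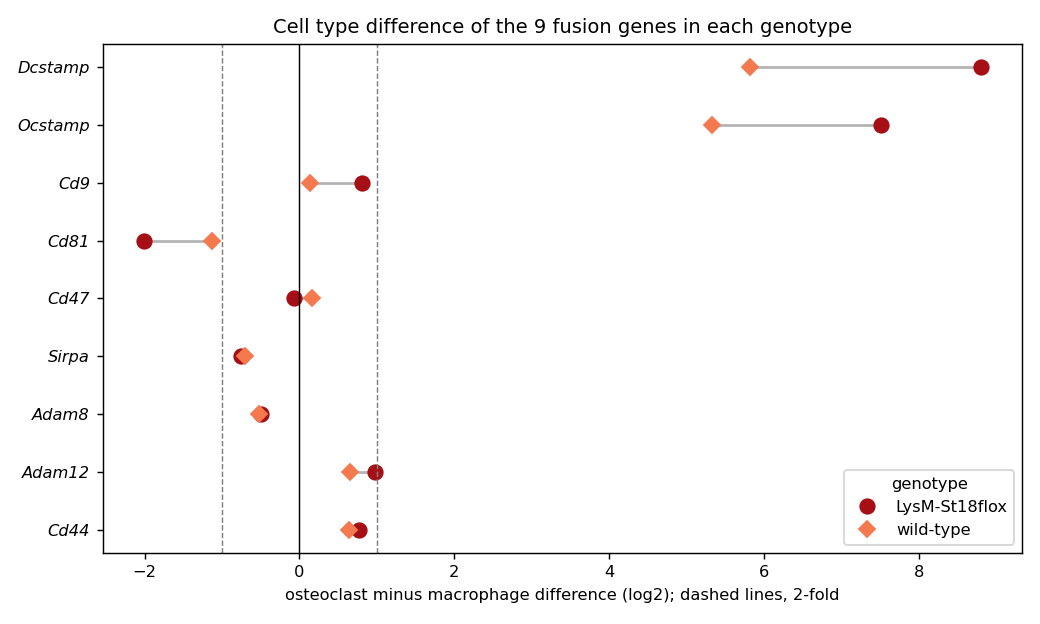
Osteoclast minus macrophage difference of each of the 9 genes (log2, horizontal), for LysM-St18flox (circles) and wild-type (diamonds), with dashed lines at 2-fold and 1 value per genotype. Dcstamp (8.80 and 5.82) and Ocstamp (7.51 and 5.33) lie far to the right, Cd81 lies left of the 2-fold line in both genotypes, and the remaining genes lie between the lines.

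The cell type difference was larger in LysM-St18flox than in the wild type for Dcstamp and Ocstamp, and Cd81 was lower by more. The excess of the LysM-St18flox difference over the wild-type difference was 2.98 for Dcstamp, the 11th highest of 13670 genes above background on all arrays, and 2.18 for Ocstamp, the 40th highest. So 2 of the 9 genes had an excess of at least 2-fold upward and 0 downward, against 3.2% of all genes upward and 4.7% downward (7.9% in all). The Cd81 excess did pass 2-fold downward in 4 of 7 alternatives, at -1.06 with quantile normalization, -1.05 with the authors' deposited values, -1.03 with the normexp correction and -1.0 with the median over probes. Of the 7, the 2 changes of the filter on dim probes could not move a gene above background on all arrays. The authors' values were themselves quantile-normalized. The second Dcstamp probe gave an excess of 2.88. Cd81 had -0.87 with its brighter probe and -1.14 with the other. Cd9 had 0.68, Adam12 0.32, Cd44 0.12, Adam8 0.03, Sirpa -0.06 and Cd47 -0.22. These excesses were not tested.

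The genotypes differed in opposite directions in the 2 cell types for Dcstamp and Ocstamp. In macrophages Dcstamp was 3.5-fold lower in LysM-St18flox than in the wild type and Ocstamp 2.01-fold lower. In osteoclasts Dcstamp was 2.26-fold higher in LysM-St18flox and Ocstamp also 2.26-fold higher. On the same arrays 5 of 7 osteoclast markers were at least 2-fold higher in LysM-St18flox and 0 lower, with a median difference of 1.23. Among the higher ones were Oscar (2.30), Calcr (2.10) and Mmp9 (2.08). Ctsk (0.29) and Acp5 (-0.29) did not pass 2-fold, and Acp5 went the other way. In macrophages 0 of the 6 markers measured passed 2-fold in either direction. No other member reached 2-fold in either cell type with the probe used. The counts were 0 higher and 2 lower of 9 in macrophages, where 3.3% of 15159 measured genes were higher and 2.98% lower (6.28% in all), and 2 higher and 0 lower in osteoclasts, where 3.8% of 14613 were higher and 3.94% lower (7.75% in all). The median genotype difference over the 9 genes was -0.48 in macrophages and 0.20 in osteoclasts, beside -0.02 and -0.00 over all measured genes.

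**Figure D3:**
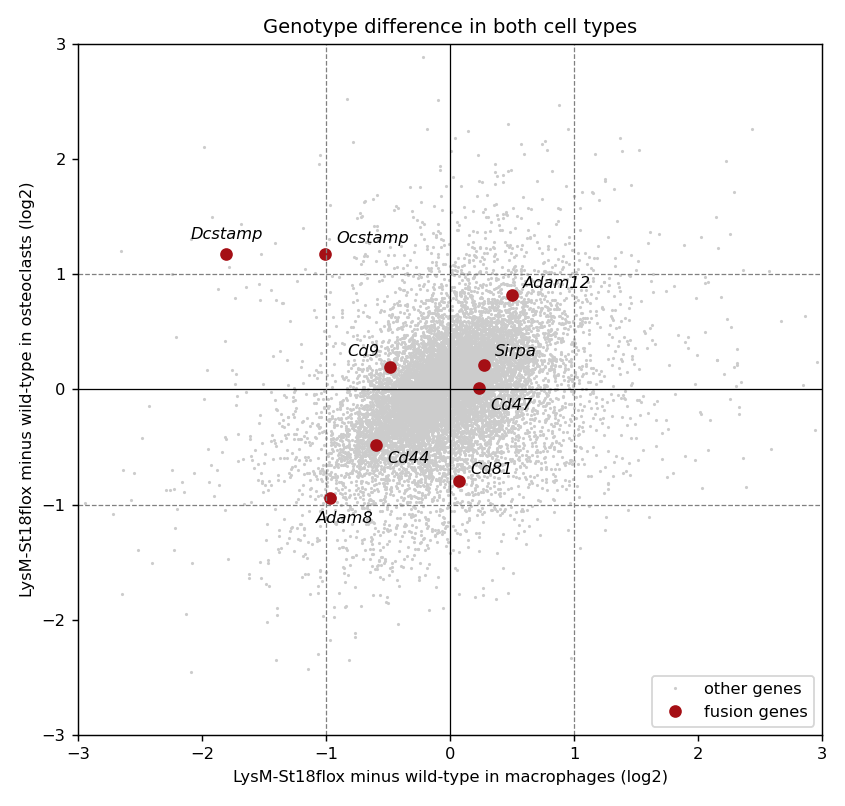
LysM-St18flox minus wild-type difference in osteoclasts (log2, vertical) against that in macrophages (log2, horizontal), with 1 point per gene measured on both pairs of arrays and dashed lines at 2-fold; both axes are cut at 3, and grey points are other genes. Dcstamp (-1.81 in macrophages and 1.18 in osteoclasts) and Ocstamp (-1.01 and 1.17) lie beyond both 2-fold lines at the upper left, and Adam8 (-0.97 and -0.94) lies where the left and lower 2-fold lines cross.

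The combination seen for these 2 genes was uncommon on the arrays. A LysM-St18flox signal 2-fold or more below the wild type in macrophages and 2-fold or more above it in osteoclasts was found for 15 of 13670 genes (0.11%). The combination was taken from the values of Dcstamp and Ocstamp, so their place among the 15 follows from that choice. The opposite combination held for 7 genes. Serpine2, a protease inhibitor, had the largest excess of the 15, with -1.99 in macrophages and 2.11 in osteoclasts. The Ocstamp difference in macrophages lay next to the threshold, and with the normexp correction it was -0.78, which left 8 genes in all and Dcstamp as the 1 member among them.

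Adam8 was lower in LysM-St18flox by nearly the same amount in both cell types. The brighter probe gave 1.92-fold lower in osteoclasts and 1.96-fold lower in macrophages, just under the threshold, while the dimmer probe gave -1.62 in osteoclasts and -1.97 in macrophages. The dimmer probe was at 1.92 in LysM-St18flox osteoclasts and 3.54 in wild-type osteoclasts, and at 2.57 in LysM-St18flox macrophages and 4.54 in wild-type macrophages. Both probes put LysM-St18flox below the wild type in each cell type, and the calls at 2-fold differed between the probes. With the authors' deposited values the difference for the brighter probe was -0.87 in osteoclasts and -0.54 in macrophages.

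Cd9, Cd81, Cd44, Sirpa and Adam12 were under 2-fold between genotypes with the probe and scaling used. Cd9 was lower by 0.48 in LysM-St18flox macrophages and higher by 0.20 in LysM-St18flox osteoclasts. Cd81 was nearly level in macrophages, at 0.07, and lower in LysM-St18flox osteoclasts, at -0.80 with the brighter probe and -0.97 with the other. Cd44 was lower in LysM-St18flox macrophages with all 3 probes, from -0.60 to -0.31. In osteoclasts 2 Cd44 probes were lower, at -0.48 and -0.51, and 1 was at 0.03. Sirpa was higher in LysM-St18flox by 0.27 in macrophages and 0.21 in osteoclasts. Adam12 was higher by 0.50 in macrophages, a sign that turned with the normexp correction, and by 0.82 in osteoclasts. The Adam12 difference in osteoclasts was 1.02, past 2-fold, with the authors' deposited values, and 0.07 with the median over its probes, one of which is not above background.

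**Figure D4:**
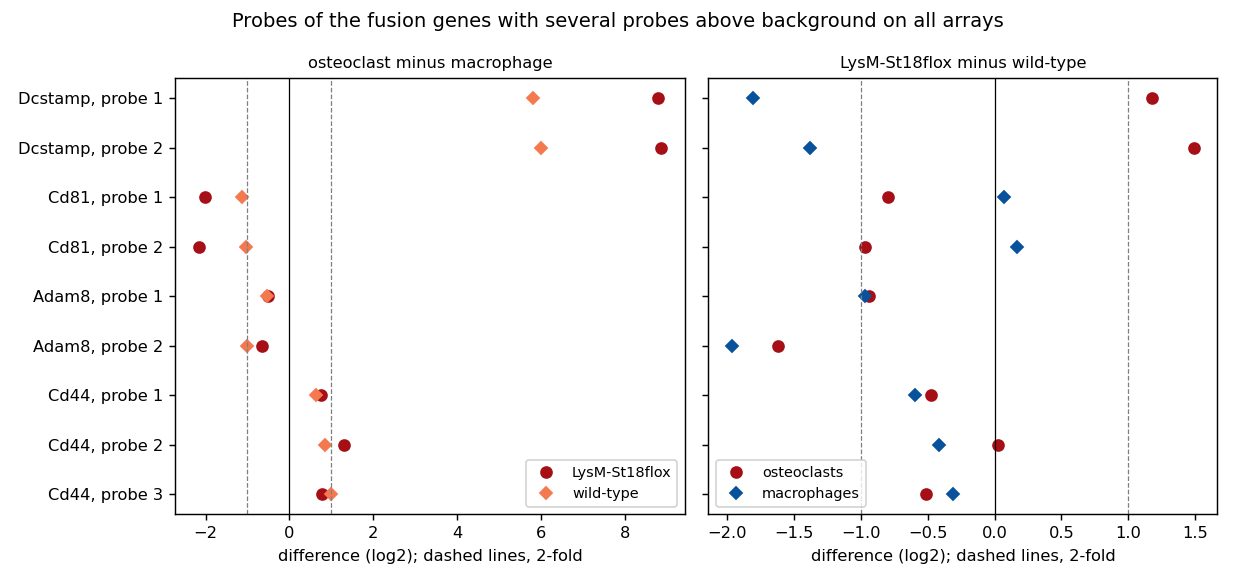
Differences (log2, horizontal) of every probe of the fusion genes that have at least 2 probes above background on all arrays: osteoclast minus macrophage on the left, LysM-St18flox minus wild-type on the right, with dashed lines at 2-fold and probe 1 the one used. The probes of Dcstamp and of Cd81 lie on the same side of 2-fold in each comparison. Between genotypes the 2 Dcstamp probes are at -1.81 and -1.38 in macrophages and at 1.18 and 1.49 in osteoclasts. The second Adam8 probe (-1.62 in osteoclasts and -1.97 in macrophages) lies beyond the first.

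The 5 genes nearest to Dcstamp in pattern, by the Euclidean distance between values on the 4 arrays after each gene's mean was subtracted, were Cyp2s1, a cytochrome P450 (0.39), Scin, an actin-severing protein (0.45), Akap6, a kinase anchor (0.67), Spns2, a sphingosine-1-phosphate transporter (0.83), and Ocstamp (1.05). Cyp2s1 had a cell type difference of 9.0 in LysM-St18flox and 6.29 in wild-type cells. The genes nearest to Ocstamp were Chpf (0.62), Sphk1, a sphingosine kinase (0.71), the ATP-gated channel gene P2rx5 (0.80), Scin (0.85) and the semaphorin receptor gene Plxna4 (0.95), and Dcstamp was the 7th of 13669. These distances rest on 4 arrays only.

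Other genes named in cell fusion were mixed. Of 28, 26 were measured in LysM-St18flox, where 9 were at least 2-fold higher in osteoclasts and 9 lower, and 25 in the wild type, where 4 were higher and 5 lower. Of all measured genes, 10.9% were higher and 12.2% lower in LysM-St18flox, and 5.7% higher and 7.32% lower in the wild type. The same shares are the background of the cell type counts in the lists below. Atp6v0d2, a proton pump subunit needed for fusion in mice, was higher by 6.38 in LysM-St18flox and 5.54 in wild-type cells. Cd200, a ligand that restrains myeloid cells, was higher by at least 9.39 in LysM-St18flox and by 5.31 in wild-type cells, and Itgb3, the beta3 integrin, by 3.80 and 2.86. Dock5, a Rac activator of the osteoclast cytoskeleton, was higher by 3.25 and 2.37. The genes lower in both genotypes were the chemokine receptor gene Ccr2 (-3.85 in LysM-St18flox and -3.01 in wild-type cells), the scavenger receptor gene Cd36 (-2.76 and -1.96), Cd200r1, the receptor for Cd200 (-2.42 and -1.5), the chemokine gene Ccl2 (-1.48 and -2.06), and Trem2 (-1.42 and -1.07). P2rx7, an ATP-gated channel, was at -2.40 in LysM-St18flox and -0.84 in wild-type cells, so only the first passed 2-fold.

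**Figure D5:**
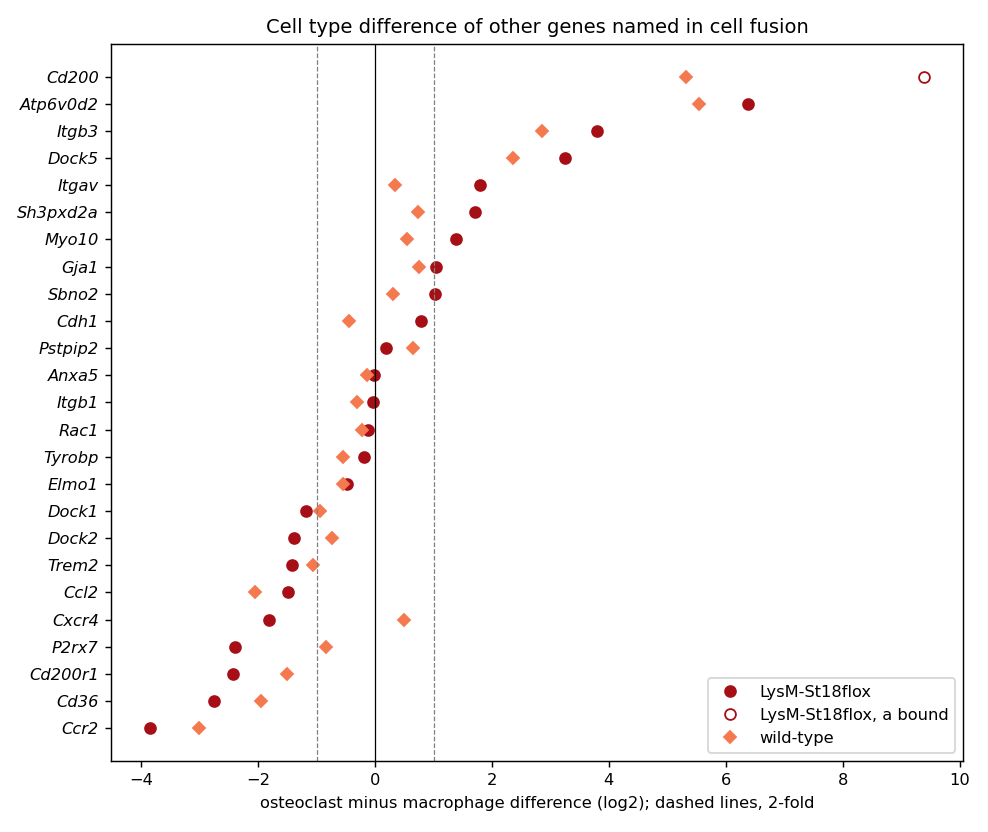
Osteoclast minus macrophage difference (log2, horizontal) of the other genes named in cell fusion that were measured in both genotypes, for LysM-St18flox (circles, open where the value is a bound) and wild-type (diamonds), with dashed lines at 2-fold. Cd200, Atp6v0d2, Itgb3 and Dock5 lie right of the line in both genotypes, and Ccr2, Cd36, Cd200r1, Ccl2 and Trem2 lie left of it in both.

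Between genotypes, Cd200 was higher by 2.15 in LysM-St18flox osteoclasts and lower by at least 1.93 in LysM-St18flox macrophages, where its signal was not well above background. Atp6v0d2 was higher by 1.77 in osteoclasts and by 0.93 in macrophages, so unlike Dcstamp it lay above 0 in both. In osteoclasts 4 of 25 of these genes were higher, Cd200, Atp6v0d2, Itgb3 (1.23) and the podosome scaffold gene Sh3pxd2a (1.38), and 0 were lower. In macrophages 1 of 26, the chemokine receptor gene Cxcr4 (1.71), was higher, and 3 were lower, Cd200, Ccl2 (-1.30) and the integrin gene Itgav (-1.20). Of all measured genes, 3.8% were higher and 3.94% lower in osteoclasts, and 3.3% higher and 2.98% lower in macrophages.

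Of 14 regulators of Dcstamp or of its pathway, 7 were higher and 3 lower in LysM-St18flox osteoclasts than in macrophages, and 3 were higher and 3 lower in the wild type. Nfatc1 was higher by 3.33 in LysM-St18flox and 2.33 in wild-type cells, Prdm1, a repressor of anti-osteoclast genes, by 2.36 and 2.87, and Fos by 1.49 and 1.17. Irf8 (-3.58 and -2.55), which restrains osteoclast formation, and Tal1 (-1.13 and -1.06) were among the lower ones. In macrophages Nfatc1 differed by 0.01 between genotypes, while Dcstamp differed by -1.81, and in osteoclasts Nfatc1 was higher by 1.02 in LysM-St18flox. Fosl1, an AP-1 subunit, was lower in LysM-St18flox in macrophages (-2.52) and in osteoclasts (-1.39), and Prdm1 was higher in macrophages (1.32).

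Cd9 and Cd81 belong to a family of which 27 genes were listed. In LysM-St18flox 6 of 23 measured tetraspanins were higher in osteoclasts and 5 lower, and in the wild type 3 of 22 were higher and 4 lower. Tspan7, which shapes the osteoclast cytoskeleton, was higher by at least 8.45 in LysM-St18flox and at least 6.68 in wild-type cells. Tspan8 was higher by at least 3.00 and by 2.93, and Cd82 by 1.40 and 1.25. Beside Cd81, Cd53 (-1.19 and -1.06) and Tspan2 (at least 1.81 lower, and -1.07) were lower in both genotypes. Among 9 partners of these proteins, Hbegf, a growth factor precursor that binds CD9, was higher by at least 6.18 and at least 4.45, the integrin gene Itga6 was lower (-1.53 and -1.45), and Ptgfrn, which binds CD9 and CD81, was at 1.25 and 0.56.

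The wider ADAM list was lower more than higher in osteoclasts. Of its 12 genes, Adam8 and Adam12 included, 4 of 10 measured were at least 2-fold lower in LysM-St18flox osteoclasts and 3 of 8 in wild-type osteoclasts, with 0 higher in either: Adam19 (-3.76 and -1.12), Adam33 (-3.44 and -2.20), Adam15 (-1.32 and -1.09) and, in LysM-St18flox, Adam22 (-1.03). Adam19 (3.18), Adam33 (1.37) and Adam22 (at least 1.28) were also higher in macrophages of LysM-St18flox than of the wild type, opposite to Adam8.

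Of the partners of Cd47 and Sirpa, 10 of 11 listed were measured, both genes included, and 2 were lower in LysM-St18flox osteoclasts, Thbs1, the thrombospondin gene whose product binds CD47 (-2.39, against -0.05 in the wild type), and Fyb, an adaptor (-1.23 and -0.67). Between macrophages Thbs1 was higher by 2.25 in LysM-St18flox. Of 13 genes for CD44, its ligands, its proteases and its linkers to actin, 5 of 10 measured were higher in LysM-St18flox osteoclasts and 2 of 9 in wild-type osteoclasts, with 0 lower. Mmp14, which cleaves CD44, was higher by 5.76 in LysM-St18flox and 4.38 in wild-type cells, and Mmp9, which docks on CD44, by 11.85 and at least 10.18. Spp1, which encodes osteopontin, was at 0.68 and -0.49, and between macrophages it was lower by 1.25 in LysM-St18flox.

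Markers of other marrow cells were read on the same arrays, because Cd9, Cd44 and Adam8 are also expressed by other cell types. All 8 neutrophil markers with a probe were above background on all arrays. Their summed signal, in multiples of the 75th percentile, was 9.82 in LysM-St18flox osteoclasts and 14.2 in wild-type osteoclasts. It was 40.4 in LysM-St18flox macrophages and 33.1 in wild-type macrophages. The macrophage sums came mostly from Mmp8, whose log2 signal was 1.20, 2.25, 4.66 and 4.33 in the same order of arrays. The sum for 6 megakaryocyte markers was 14.7, 24.2, 209 and 194 in the same order of arrays, mostly from Pf4, which macrophages also make, while Itga2b, Gp1ba and Gp9 were not above background on any array. The sum for 6 dendritic cell markers was 102, 145, 101 and 164, nearly all from Siglech. Of 7 B cell markers, 3 (Cd79b, Pax5 and Vpreb1) were above background on all arrays, and Cd79a and Igll1 were on none. The B cell sum was 0.31 in LysM-St18flox osteoclasts and 0.49 in wild-type osteoclasts, against 1.70 in LysM-St18flox macrophages and 1.35 in wild-type macrophages. Cd79b, a chain of the B cell receptor, was lower in osteoclasts (-3.29 in LysM-St18flox and -2.23 in wild-type cells). Of 7 T and NK cell markers, 3 (Cd3e, Cd3d and Lck) were above background on all arrays and Cd3g and Ncr1 on none, with sums from 0.77 to 1.06. Of 6 erythroid markers with a probe, Hba-a1 was above background on all arrays and Klf1 and Alas2 on none. The erythroid sum was 0.20 and 0.19 in LysM-St18flox and wild-type osteoclasts, against 0.64 and 0.31 in LysM-St18flox and wild-type macrophages. Most of the 0.64 came from Epor. Of 7 stromal markers, 3 (Col1a2, Lepr and Dcn) were above background on all arrays and Col1a1, Col3a1, Pdgfrb and Cxcl12 on none, with sums from 1.24 to 1.74. The part of other cells in the values above was not tested.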

How the data were processed

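Per the submitters' processing notes, the scans were read by Agilent Feature Extraction 11.0.1.1. The deposited files give each spot's processed intensity (background-subtracted and detrended, not scaled across arrays), the median intensity of spot and local background, and flags of 0 or 1, per the file headers. A second deposited table holds the authors' log2 values of 30909 probes, quantile-normalized as its values show (column median 9.39, correlation with the scanner values at least 0.9998). It was used as an alternative.

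Spots flagged as uneven or outlying (80 to 126 per array) were left out, spots of a probe averaged, and log2 signals set against the 75th percentile of all probes. RefSeq accessions and a gene table of GRCm38.p6 named 58.3% of probes. The files' header names another build, so gene coordinates are not given and promoter windows carry their own build. The probe of highest mean signal stood for its gene. A gene counted as measured in a comparison if either array was well above background, with an exception given below. Where the other array was dim, its signal was replaced by the higher of itself and that array's lowest signal well above background, and the difference is a bound ("at least"). If the array well above background was not the higher one after this replacement, the gene was left out as not measured.

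With 1 array per group no test was made. The code for differences was tested on simulated data. Named genes were the 9 members, up to 5 genes in each direction per fixed list among those past 2-fold, and the 5 genes nearest to Dcstamp and Ocstamp. P2rx7, Fyb, Ptgfrn, Serpine2, the Spp1 cell type values and the macrophage value of Nfatc1 were named after their values were seen. The members and lists were chosen with earlier results of these data known. Alternatives were median centring, quantile normalization, normexp (offset 50) with limma 3.58.1 on spot medians (mean signals were not used here), the authors' values, the median over probes, 2 other filters and a 1.5-fold threshold. Python 3.11.15 was used. Values of some listed genes are not reported here.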

Additional observations from a re-analysis of the deposited data

Results flagged for a closer look

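Dcstamp and Ocstamp were singled out because the difference between LysM-St18flox and wild-type cells ran in opposite directions in macrophages and osteoclasts. The rule also asked for a size of at least 0.2 in both. Dcstamp was at -1.81 in macrophages and 1.18 in osteoclasts, and Ocstamp at -1.01 and 1.17. The signs were also opposite for Cd9 (-0.48 and 0.197) and Cd81 (0.07 and -0.80), each short of 0.2 in 1 cell type. In osteoclasts Cd9 reached 0.24 with median centring and 0.31 with normexp, past that size. With 1 array per group, the difference between the cell types was not tested. The second Dcstamp probe showed the same signs, at -1.38 in macrophages and 1.49 in osteoclasts.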

How the results depend on the processing

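All 12 member values past 2-fold kept their sign under the 7 alternatives, and 39 of all 45 member values did. The 2 other filters could not move any member value, because all 9 genes were well above background on all 4 arrays. The median over probes could not move the 4 genes with 1 probe. The authors' values were themselves quantile-normalized, so they are not a check separate from quantile normalization. The 6 that changed sign were at most 0.50 in size. Among the 45 values 8 crossed 2-fold. The number of members past 2-fold in LysM-St18flox osteoclasts against macrophages was 5 in place of 3 with quantile normalization and also with the authors' deposited values, through Sirpa (-1.01 in both) and Adam12 (1.09 and 1.12). In LysM-St18flox against wild-type macrophages it was 1 in place of 2 with the normexp correction. Over the 4 comparisons, 10 calls became 22 with a 1.5-fold threshold. A looser threshold also admits more of all genes, and their share at 1.5-fold is not given here. The 22 calls are therefore no result about the members. With the median over probes, Adam8 passed 2-fold in macrophages (-1.47) and osteoclasts (-1.28), and Cd44 in LysM-St18flox (1.30). The count of all genes past 2-fold between wild-type cell types was 2985 without the filter on dim probes in place of 1918. Between genotypes in macrophages it was 557 with normexp and 2093 without the filter in place of 952. In osteoclasts it was 537 with normexp, 695 with the authors' values and 2330 without the filter in place of 1132. In osteoclasts 49.1% of these genes were higher in LysM-St18flox, and 62.2% with quantile normalization, 59.2% with normexp and 62.2% with the authors' values. The 15 genes lower in LysM-St18flox macrophages and higher in LysM-St18flox osteoclasts became 8 with normexp and 76 without the filter. Except where the construction of an alternative shows it, the cause was not tested. No paired analysis was possible because each group has 1 array. The number of arrays limits the precision, and dim signals are less precise than bright ones. Signals below -2 were those of Adam12 on all 4 arrays, and of Dcstamp (-2.38) and Ocstamp (-2.27) in LysM-St18flox macrophages. The macrophage genotype differences of Dcstamp and Ocstamp, and their cell type differences in LysM-St18flox, rest on these dim values.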
